A study of Caenorhabditis elegans with 2 samples.

Results

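Where the FOXO transcription factor DAF-16 was recovered on the genome was examined at 9 Caenorhabditis elegans genes of the glyoxylate cycle and gluconeogenesis, out of 19973 protein-coding genes on the nuclear chromosomes. The 9 genes, icl-1, pck-1, pck-2, fbp-1, mdh-1, mdh-2, cts-1, aco-1 and aco-2, were taken by name, and all 9 were found in the WBcel235 annotation, which has ce11 coordinates. For each gene, every entry of the deposited peak lists was taken whose summit lay between 3000 bp upstream of the gene and the gene's end, a stretch called the gene window here.

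The data are chromatin immunoprecipitations from 2 biological replicates of a single group, sequenced and turned into peak lists by the authors. The animals were whole hermaphrodites of strain ZM8745 at the L4 larval stage, 54 hours after synchronization from starved L1 larvae. Their genotype was daf-16(mu86), which removes the animal's own daf-16, with daf-2(e1370), an allele of the insulin receptor gene, and the transgene hpSi15, in which the intestinal ges-1 promoter drives DAF-16a fused to GFP. The source label writes the tag before DAF-16a and another label places GFP at the C-terminal end. An antibody against GFP was used, and the tag is made only in cells in which the ges-1 promoter is active. No second genotype, condition or control library was analysed here, so nothing below compares conditions, and there is no measure of what the antibody recovers from animals without the tag.

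The authors' optimal set held 1489 entries on ce11, the list called on both replicates together (pooled) held 30000, and the replicate 1 and replicate 2 lists held 28175 and 22676. The longer lists reach far into background. All 1489 optimal entries are in the pooled list, where they take the first 1489 ranks by signal. Each entry carries the authors' signal, whose scale is not stated, so entries are ranked by it within a list, with rank 1 the highest. The lists hold no read counts, and the depth is unknown.

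The glyoxylate cycle is a shunt across the tricarboxylic acid (TCA) cycle. It splits isocitrate and makes malate, skipping the steps that release carbon dioxide, so that acetyl-CoA from fat can yield net 4-carbon acids. Malate is oxidized to oxaloacetate, which phosphoenolpyruvate carboxykinase turns into phosphoenolpyruvate, and gluconeogenesis runs from there back to hexose, with fructose-1,6-bisphosphatase at an irreversible step. In the worm, fat is stored largely in the intestine, and insulin signalling through DAF-2 keeps DAF-16 out of the nucleus.

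An optimal summit lay in the gene window of 4 of the 9 genes, namely icl-1, fbp-1, cts-1 and pck-2, a share of 44.4%. By the same rule 1645 of the 19973 nuclear protein-coding genes had one, or 8.24%. Between them the 4 genes held 6 optimal entries, since icl-1 and fbp-1 had 2 each, and 1.07% of all genes had 2 or more. The remaining 5 genes, pck-1, mdh-1, mdh-2, aco-1 and aco-2, had entries in the pooled list only below the optimal range. An entry of any rank is a weak criterion: the pooled list had one in all 9 windows and in 68.9% of all gene windows. The replicate 1 list had one at 8 of the 9 genes, against 70.0% of all genes, and the replicate 2 list at 9, against 66.5%. The 9 windows were from 4244 to 8965 bp long, with a median of 6454 bp, where the median over all genes was 5027 bp. Windows overlap those of neighbours: every one of the 6 optimal summits also lay in the window of another protein-coding gene, srh-2 at icl-1, ptr-12 at fbp-1, cox-14 at cts-1 and R11A5.3 at pck-2. No test was made of these shares, because the genes were chosen with results of these data known.

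**Figure D1:**
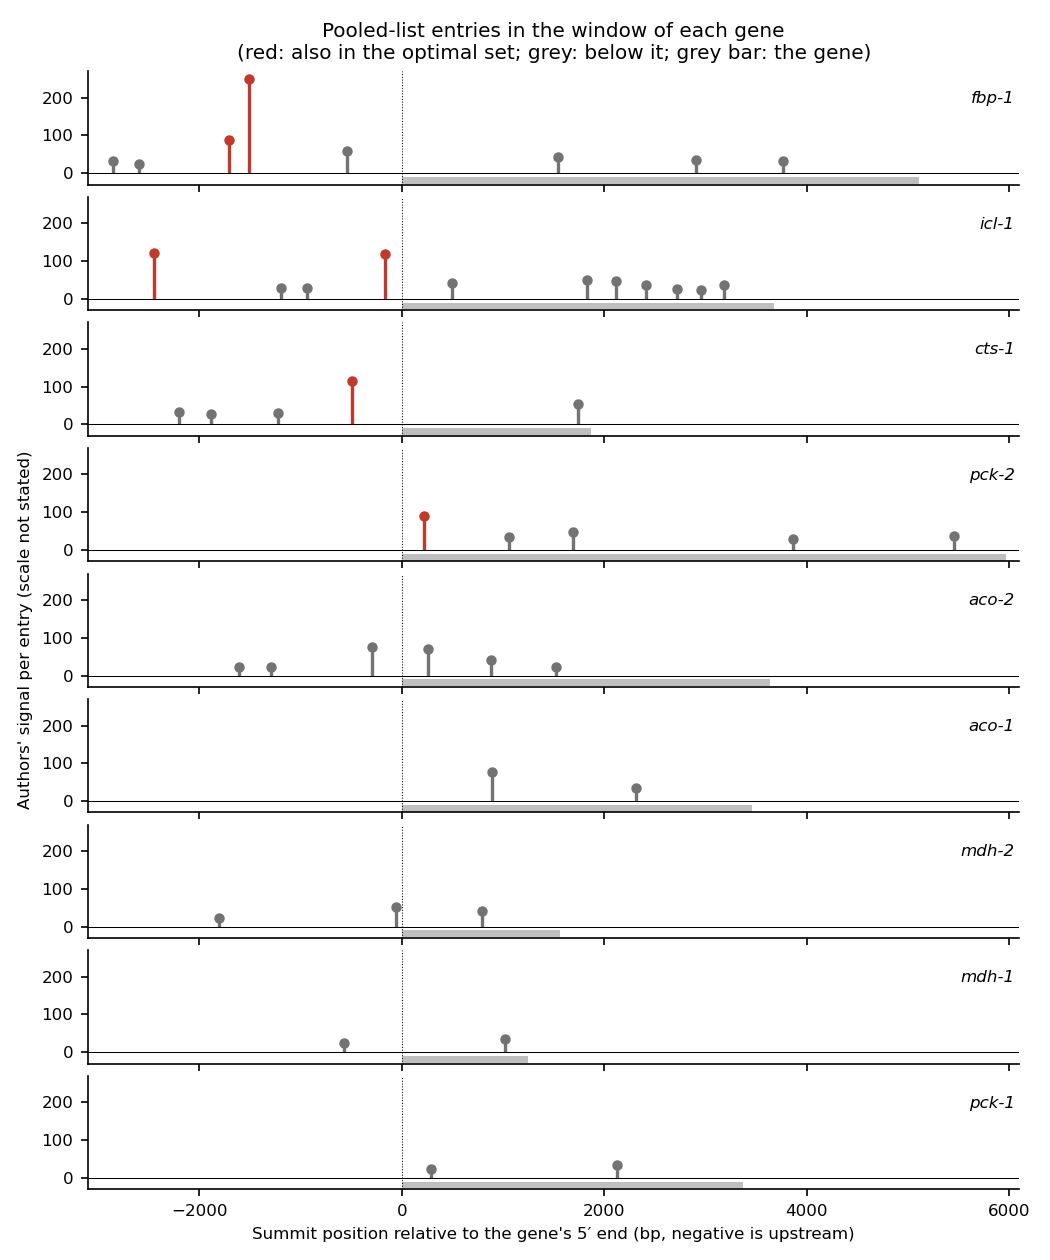
Pooled-list entries in the windows of the 9 genes, ordered by their highest entry: the x axis is the summit's distance in bp from the gene's 5′ end, and the y axis the authors' signal on its unstated scale. Red stems are entries also in the optimal set, grey stems entries below it, and grey bars the genes. The red stems of fbp-1, icl-1 and cts-1 all lie upstream of the gene, and that of pck-2 lies just inside it.

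The enzyme specific to the glyoxylate cycle is encoded by icl-1 (WBGene00001564), whose product joins isocitrate lyase and malate synthase in one protein. The gene is on the minus strand of chromosome V, from 724332 to 728004. Its first optimal entry, chrV:728107-728248, had its summit at 728175, which is 171 and 182 bp upstream of the starts of its 2 transcripts. The signal there was 118.9 in the pooled list, at rank 745, with 69.76 in replicate 1 at rank 736 and 47.07 in replicate 2 at rank 1140. The second, chrV:730244-730663, had its summit at 730454, 2450 and 2461 bp upstream of the same starts. Its signal was 122.0 in the pooled list at rank 703, with 51.78 in replicate 1 at rank 1389 and 70.07 in replicate 2 at rank 450. Both places were within the 1489 highest entries of each replicate. The start-proximal one ranked higher in replicate 1, and the distal one in replicate 2.

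Both icl-1 summits lie on the side of a neighbour that points the other way, srh-2, a gene of the chemoreceptor family H. The start-proximal summit is in the stretch between the 2 genes and is 126 bp from the nearest srh-2 start, nearer than to icl-1. A gene annotated as non-coding RNA, C05E4.16, begins 56 bp from the same summit. The distal one is in an intron of srh-2. Its nearest srh-2 start, 949 bp away, is a different one that lies farther from icl-1 than the summit does. A peak list does not say which of the pair a summit belongs to. The srh-2 window also held a pooled entry at rank 74, higher than both of these and outside the icl-1 window. Inside icl-1 itself the pooled list had 7 entries, ranked between 4933 and 23962. The one at summit 725887, in a coding exon, was at rank 1884 in replicate 1 and had no replicate 2 entry within 150 bp.

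The sequence under both icl-1 summits is shown because it holds elements linked to DAF-16. Searched were TGTTTAC, a form of the DAF-16 binding element, and its other form TATTTAC. The DAF-16 associated element TGATAAG was searched too, with the GATA factor core TGATAA that it contains, and so was CACGTG, an E-box. Both strands were read over 101 bp centred on the summit, and matches are in capitals in lower-case sequence, written 5′ to 3′ on the icl-1 strand from the RefSeq WBcel235 genome.
icl-1 start-proximal summit, chrV:728125-728225, minus strand: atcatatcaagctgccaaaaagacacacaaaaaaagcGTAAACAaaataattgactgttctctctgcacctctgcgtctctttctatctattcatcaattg
icl-1 distal summit, chrV:730404-730504, minus strand: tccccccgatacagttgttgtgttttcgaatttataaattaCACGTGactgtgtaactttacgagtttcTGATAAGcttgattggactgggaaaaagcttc

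The start-proximal window held TGTTTAC, written on the icl-1 strand as its reverse complement, with its nearest base 7 bp from the summit. TGTTTAC was in 4.17% of the 1464 optimal nuclear windows and in 1.16% of the 28511 pooled nuclear windows below the optimal range. The distal window held no TGTTTAC but had TGATAAG with its nearest base 19 bp from the summit, and CACGTG 4 bp from it. TGATAAG was in 8.81% of optimal nuclear windows and 2.67% of the lower ones, and CACGTG in 4.85% and 2.17%. So each of the 2 icl-1 summits had 1 of the 2 DAF-16 linked elements, and a different one.

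Fructose-1,6-bisphosphatase, which removes a phosphate from fructose-1,6-bisphosphate late in gluconeogenesis, is encoded by fbp-1 (WBGene00001404), on the minus strand of chromosome I from 2581015 to 2586124. It had the highest entry of the 9 genes. That entry, chrI:2587531-2587655, had its summit 1511 and 1513 bp upstream of the starts of the 2 transcripts. Its signal was 249.8 in the pooled list at rank 98, with 139.3 in replicate 1 at rank 104 and 117.6 in replicate 2 at rank 85. Both replicates thus placed it among their highest 0.375% of entries. A pooled entry ranked as high or higher was in the windows of 0.431% of all genes.

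The second optimal entry of fbp-1, chrI:2587624-2588043, overlaps the first, and the summits are 199 bp apart. Its signal of 88.34 put it at rank 1373 of the pooled list, near the end of the optimal range. It had a signal of 59.69 in replicate 1, at rank 1027, and 25.24 in replicate 2, at rank 4999, so that only replicate 1 had it among the 1489 highest. The higher summit lies in the 3′ UTR and the lower one in a coding exon of ptr-12, a patched-related gene that lies upstream on the same strand. The nearest protein-coding start to both was that of fbp-1. The window of the higher summit held TGTTTAC, 28 bp from the summit, and TGATAA at 45 bp. The lower one held TGATAAG at 15 bp and no TGTTTAC. Another fbp-1 entry, 538 bp upstream of the nearest start, was outside the optimal set, at rank 3031 pooled, 2581 in replicate 1 and 7031 in replicate 2.

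The genes of phosphoenolpyruvate carboxykinase, the enzyme of the first committed step from oxaloacetate towards glucose, differed in rank. The pck-2 gene (WBGene00011232, chromosome I, 7866136 to 7872100, plus strand) had 1 optimal entry, chrI:7866145-7866564, with its summit in a 5′ UTR. Of its 5 transcript starts, the summit was 106 bp downstream of the nearest one and 219 bp downstream of the first. The other starts lay 201, 2741 and 3672 bp downstream of the summit. The signal was 89.30 in the pooled list at rank 1345, with 45.66 in replicate 1 at rank 1830 and 38.39 in replicate 2 at rank 1749. Neither replicate alone had this place among its 1489 highest entries, though the ranks were close to each other. None of the 5 motifs was found in its 101 bp window, where 51.5% of bases were G or C, against a median of 46.5% over the optimal nuclear windows.

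A further pck-2 entry, 1268 bp from the nearest of its starts, was at rank 5525 of the pooled list. It had a signal of 39.68 in replicate 2, at rank 1625, and no replicate 1 entry within 150 bp. Its summit lies in an intron of pck-2 and also in a coding exon of R11A5.6, a gene whose start is 94 bp away. The paralogue pck-1 (WBGene00021043, chromosome III, 62888 to 66260, minus strand) came last of the 9 genes by its highest entry. Its pooled entries had signals of 32.87 and 22.44, at ranks 13421 and 27450, with summits 2124 and 285 bp downstream of its single start. Replicate 2 had entries at ranks 16537 and 22456, and replicate 1 had none. Of all genes, 48.4% had a pooled entry as high as that of pck-1.

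**Figure D2:**
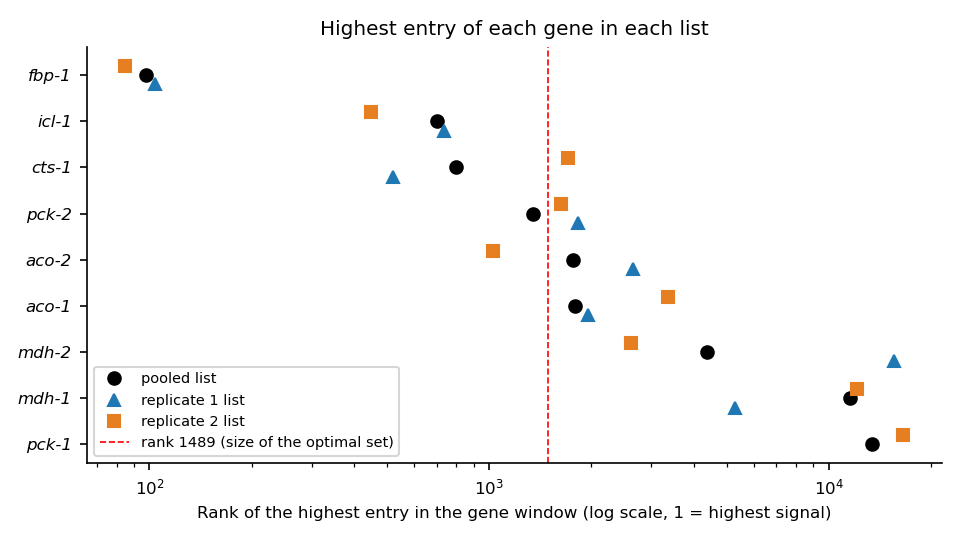
Rank of the highest entry in the window of each gene, on a log scale, in the pooled list (circles), replicate 1 (triangles) and replicate 2 (squares); the dashed line is rank 1489, the size of the optimal set. For fbp-1 and icl-1 all 3 symbols lie left of the line, for cts-1 and pck-2 the pooled one does while at least 1 replicate does not, and pck-1 has no replicate 1 symbol.

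The other 5 genes encode enzymes that the glyoxylate cycle shares with the TCA cycle or with malate shuttling. Citrate synthase, which joins acetyl-CoA to oxaloacetate, is encoded by cts-1 (WBGene00000833, chromosome III, 10214771 to 10216635, minus strand). Its optimal entry, chrIII:10216913-10217332, had its summit in the stretch upstream of the gene, 488 bp from the single transcript start. The signal was 115.1 in the pooled list at rank 799, with 80.44 in replicate 1 at rank 521 and 38.87 in replicate 2 at rank 1704, outside the 1489 highest. The replicate 2 summit was also 92 bp from the pooled one, where that of replicate 1 was 12 bp away. The 101 bp window of this summit held none of the 5 motifs.

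The cts-1 window had another place where the replicates ranked unlike. Near the gene's end, in its 3′ UTR and that of best-18, an entry with a signal of 69.96 was at rank 731 in replicate 1. The entry there in replicate 2 had a signal of 20.89 at rank 8409, and the pooled list had it at rank 3806, outside the optimal set. Further entries in the cts-1 window were shared with rde-4, and some near its end with blos-1. The sequence at the cts-1 upstream summit is given for comparison with the icl-1 pair, on the cts-1 strand and with no match to capitalize.
cts-1 summit, chrIII:10217073-10217173, minus strand: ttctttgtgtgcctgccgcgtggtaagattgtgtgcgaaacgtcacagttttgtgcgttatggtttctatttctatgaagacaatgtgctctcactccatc

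Aconitase, which turns citrate into isocitrate, has a cytosolic form encoded by aco-1 and a mitochondrial form encoded by aco-2. Both genes had their highest pooled entry just below the optimal range, which ended at rank 1489. At aco-2 (WBGene00000041, chromosome III, 7973717 to 7977355, plus strand) the highest entry had a signal of 76.75 at rank 1763, with its summit 299 bp upstream of the nearest of 4 starts. It had a signal of 35.28 in replicate 1 at rank 3501 and 49.46 in replicate 2 at rank 1026, within the highest 1489. This summit lies within F54H12.9, annotated as non-coding RNA. It is 32 bp from the start of eef-1B.1, which encodes a translation elongation factor subunit and points the other way. A second aco-2 entry, in an intron 131 bp from the nearest of its own starts, had signals of 70.03 pooled at rank 2135, 39.19 in replicate 1 at rank 2657 and 26.25 in replicate 2 at rank 4500.

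At aco-1 (WBGene00000040, chromosome X, 11339874 to 11343327, plus strand) the highest entry lay in an intron, 895 bp downstream of the start. Its signal was 76.05 in the pooled list at rank 1794, with 44.37 in replicate 1 at rank 1958 and 25.39 in replicate 2 at rank 4915. It also lay in the window of gcy-9. Replicate 2 ranked another aco-1 entry higher, in a coding exon 2311 bp downstream, with a signal of 29.25 at rank 3365. The intron window is printed because it lies just below the optimal range and has the GATA core 5 bp from the summit. A whole TGATAAG has its nearest base 48 bp from the summit and runs past the edge of the 101 bp window, so it is not counted there or capitalized. That core is common: it was in 19.7% of optimal nuclear windows and 11.0% of the lower ones.
aco-1 intron summit, chrX:11340719-11340819, plus strand: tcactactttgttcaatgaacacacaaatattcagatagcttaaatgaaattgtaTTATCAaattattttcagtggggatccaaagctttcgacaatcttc

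Malate dehydrogenase, which oxidizes malate to oxaloacetate, has a cytosolic form encoded by mdh-1 and a mitochondrial form encoded by mdh-2. Neither gene approached the optimal range in the pooled list. The mdh-2 gene (WBGene00003162, chromosome III, 6606544 to 6608106, minus strand) had its highest entry, shared with the windows of F20H11.4 and srh-40, 59 bp upstream of its start, with a pooled signal of 51.27 at rank 4377. The replicates ranked that place far apart, with 19.23 at rank 16930 in replicate 1 and 32.28 at rank 2622 in replicate 2. The mdh-1 gene (WBGene00018491, chromosome V, 6515283 to 6516526, minus strand) had its highest pooled entry in a coding exon, with a signal of 35.07 at rank 11534. That summit was 271 bp from the start of its neighbour dpy-11 and 1015 bp from its own. In replicate 1 the highest mdh-1 entry had a signal of 30.44 at rank 5296, and in replicate 2 another, 660 bp upstream of the start, had 18.15 at rank 12128.

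The highest pooled entry of the 9 genes had a median rank of 1763. Over all genes, those without an entry counted as last, the median was 14300. In replicate 1 the medians were 1958 and 13742, and in replicate 2 they were 1704 and 13374. The pooled list had from 2 to 11 entries per window at the 9 genes, with a median of 5, where the median over all genes was 1. Of the 9 genes, 6 had a pooled entry down to rank 2978, double the length of the optimal set, as had 15.8% of all genes.

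**Figure D3:**
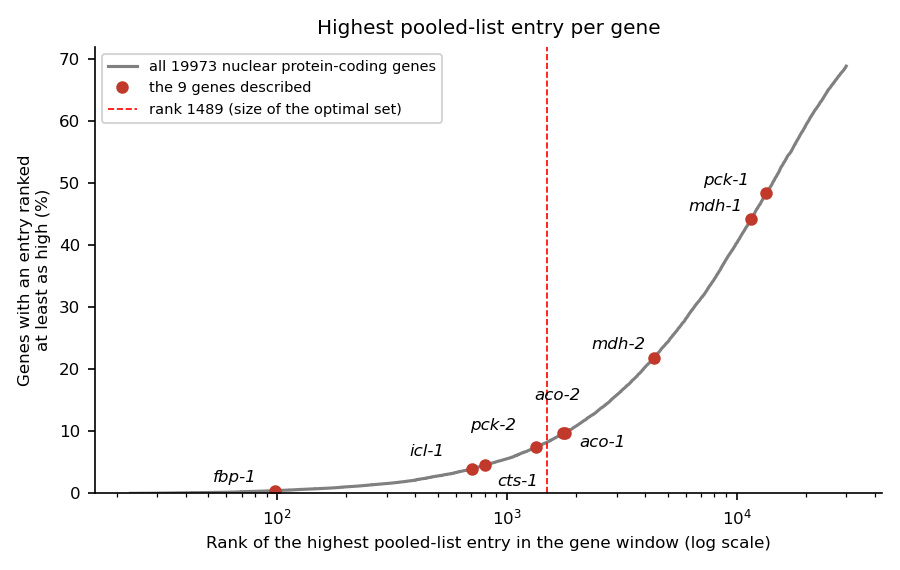
Share of the 19973 nuclear protein-coding genes, in percent, whose window held a pooled-list entry ranked at least as high as the value on the log-scaled x axis (grey curve); red points mark the 9 genes and the dashed line rank 1489. From fbp-1 at 0.431% to aco-1 at 9.80%, 6 of the genes lie on the lowest stretch of the curve, while mdh-1 and pck-1 lie at 44.2% and 48.4%.

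Each replicate was then taken alone, with its 1489 highest entries. In replicate 1 they reached 3 of the 9 genes, icl-1, fbp-1 and cts-1, against 8.27% of all genes. In replicate 2 they also reached 3, icl-1, fbp-1 and aco-2, against 8.30% of all genes. So icl-1 and fbp-1 were found in the optimal set and in each replicate alone, cts-1 in the optimal set and 1 replicate, pck-2 in the optimal set but in neither replicate, and aco-2 in replicate 2 but not in the optimal set. Nearer the starts, from 1000 bp upstream to 500 bp downstream of any transcript start, 3 of the 9 genes had an optimal summit, icl-1, pck-2 and cts-1, against 4.20% of all genes. The fbp-1 summits lie beyond that distance. Where the gene also had to own the nearest protein-coding start, 3 genes remained, fbp-1, pck-2 and cts-1, against 5.12% of all genes, and icl-1 was lost to srh-2.

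Of the 6 optimal summits at the 9 genes, 4 had TGATAAG or TGTTTAC within 50 bp, those of icl-1 and fbp-1, and the 2 at cts-1 and pck-2 did not. TATTTAC was at none of the 6. Of all optimal nuclear summits 13.7% had one of the 3 elements, as had 6.04% of the pooled ones below the optimal range. TATTTAC alone went the other way, at 1.23% of the optimal nuclear summits and 2.35% of the lower ones. At both icl-1 and fbp-1, 1 summit had TGTTTAC and the other TGATAAG. The 2 icl-1 summits are 2279 bp apart, and the windows of the fbp-1 pair do not overlap. These 4 summits are at 2 genes and are not independent of each other.

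Elements were also looked for in the 1000 bp before each gene, whether or not a summit lay there. TGTTTAC was upstream of icl-1 and fbp-1, and of 13.4% of all genes. The fbp-1 match is not the one at its highest summit, which lies 1511 bp upstream and so outside this stretch. TGATAAG was upstream of mdh-1 and pck-2, and of 20.5% of all genes. The core TGATAA was upstream of 6 of the 9, against 66.0% of all genes. TATTTAC was upstream of cts-1 and aco-2, and of 20.7% of all genes. CACGTG was upstream of 0 of the 9, against 15.2% of all genes. A match to these letters does not show a site in use, and a lack of one says nothing of the factor.

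Other enzymes around these routes were taken from 3 lists. Of 19 genes of glycolysis and gluconeogenesis, 2 had an optimal summit in the gene window, or 10.5%, close to the 8.24% of all genes. They were pyk-1, one of the pyruvate kinase genes, whose enzyme works in the glycolytic direction, with a signal of 114.6 at rank 805 in an intron 191 bp from a start, and the glyceraldehyde-3-phosphate dehydrogenase gene gpd-2. The gpd-2 entry, with a signal of 117.2 at rank 767, lay 2618 bp upstream of its start and nearer to that of its neighbour mai-1, at 718 bp. The pyruvate carboxylase gene pyc-1, which opens gluconeogenesis from pyruvate, was reached in the pooled list down to rank 2978 and had no optimal summit. That looser cut-off reached 24 of the 51 genes matched in the 3 lists, and 15.8% of all genes. Among the 19 genes it also reached gpd-1, gpd-3, tpi-1, enol-1, hxk-1 and gpi-1, besides gpd-2 and pyk-1.

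Of 22 other TCA cycle genes, 4 had an optimal summit, or 18.2%. The highest was at idh-1, an isocitrate dehydrogenase gene, with a signal of 169.9 at rank 333 and its summit 1255 bp upstream, at ranks 395 and 228 in replicates 1 and 2. A second idh-1 entry, at rank 1305, was at rank 1524 in replicate 1 and 14787 in replicate 2. The succinyl-CoA ligase gene sucl-1 had a signal of 104.8 at rank 984, dlst-1, which encodes a subunit of the oxoglutarate dehydrogenase complex, had 91.61 at rank 1283, and idhg-1, a subunit gene of the NAD-dependent isocitrate dehydrogenase, had 89.50 at rank 1339. Those last 3 summits lay 288, 124 and 57 bp upstream of a start.

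Of 10 genes of trehalose and glycogen, the sugar stores that gluconeogenesis can feed, 3 had an optimal summit, or 30.0%. The glycogen synthase gene gsy-1 had a signal of 158.9 at rank 398, 751 bp upstream of a start, and ranked 716 and 237 in replicates 1 and 2. The trehalase gene tre-1, whose enzyme splits trehalose, had 128.6 at rank 646, 32 bp upstream of a start. The trehalose-6-phosphate synthase gene tps-2 had 91.32 at rank 1293, 2293 bp upstream. Over the 3 lists, 9 of 51 genes had an optimal summit, or 17.6%, and the median rank of their highest pooled entry was 3076, between the 1763 of the 9 genes and the 14300 of all genes. No optimal summit named here for the 9 genes or these lists lay within 100 bp of a transfer, small nucleolar, small nuclear or micro RNA gene.

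**Figure D4:**
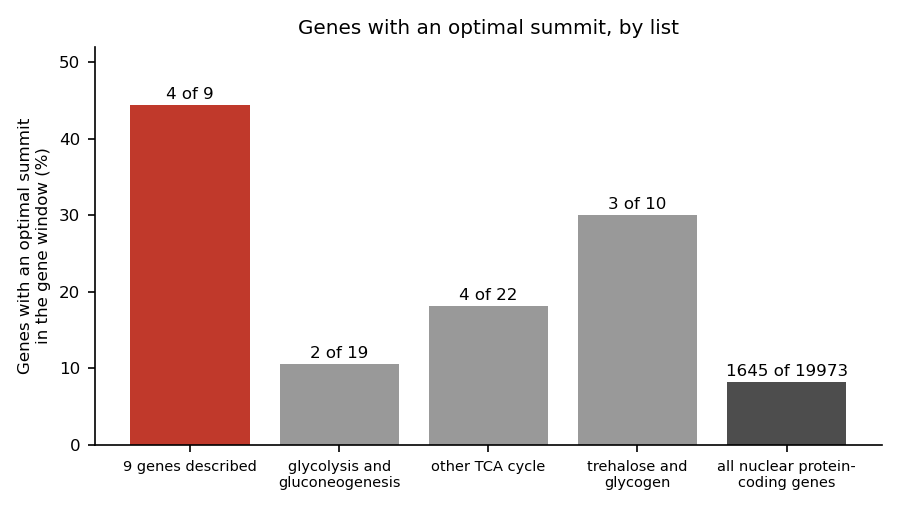
Share of genes with an optimal summit in the gene window, in percent, for the 9 genes described, 3 related lists and all nuclear protein-coding genes, with counts above the bars. The 9 genes stand at 4 of 9 and all genes at 1645 of 19973, and the related lists lie between them.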

How the data were processed

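Chromatin immunoprecipitation with an antibody against GFP was sequenced by the submitters from 2 biological replicates. The deposited lists are named by their files as peaks and background made as input for the irreproducible discovery rate, per replicate and pooled, and as the optimal set past that threshold. The aligner is not given in the sources used here, nor are the peak caller and the cut-off. Ranks rest on the deposited signal per entry, of unstated scale. The deposited −log10 q-value has a single highest value shared by 1173 pooled entries and was not used. Lists on ce10 were not analysed here.

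A summit was the deposited start plus its offset, written counting from 1. Genes came from Ensembl release 115 on WBcel235 and sequence from the RefSeq copy of that assembly. A replicate entry was matched to a pooled one within 150 bp. Work used Python 3.11.15, numpy 2.4.6, pandas 2.3.3 and Biopython 1.88, and the window rule was tested on simulated summits. Text names all 9 genes, every related gene with an optimal summit, and the neighbours that share an optimal summit or are nearest to an entry described. Neighbours sharing only other entries, which the rule also covered, were btb-5, fbxb-72, F46E10.2, F46E10.3, ctsa-4.2, F54H12.5 and F54H12.8. Of the 51 related genes, pyc-1, gpd-1, gpd-3, tpi-1, enol-1, hxk-1 and gpi-1 were named after their values were seen. Of 52 related genes listed, ugp-1 had no match by name. The genes and lists were chosen with earlier results of these data known, so shares are set beside those of all genes without a test.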

Additional observations from a re-analysis of the deposited data

How the results depend on the processing

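The count of 4 of the 9 genes, against 8.24% of all genes, was 3 with 1000 bp upstream, against 5.56%. It was 4 with 2000 bp (6.92% of all genes), with 5000 bp (10.6%), with overlap of the interval (9.17%) and without summits near small RNA genes (6.07%). With the nearest start required it was 3, and the share of all genes fell to 5.12%. In the 744 highest optimal entries it was 2 (icl-1 and fbp-1), against 4.22% of all genes, and 3 of the related genes were called. In the pooled list to rank 2978 it was 6, against 15.8%, with 24 related genes. The promoter count of 3 was 0 in the 744 highest, as the icl-1, cts-1 and pck-2 summits there had ranks 745, 799 and 1345. It was 4 with 2000 bp upstream, and 2 with each replicate left out. The share of all genes is not given for these changed promoter settings, so these promoter counts have no background beside them. Leaving out a replicate gave 3 and 3 of the 9 genes, from 8.27% to 8.30% of all genes, and from 10 to 11 related genes, where the optimal set gave 9. TGATAAG or TGTTTAC was at 3 of the 6 optimal summits within 25 bp and at 4 within 100 bp. With TATTTAC counted too, a match was at 6.01% of all optimal nuclear summits within 25 bp and at 22.7% within 100 bp. For the pooled ones below the optimal range these shares were 3.0% and 11.1%. No paired analysis was possible because there is 1 group. With 2 replicates and no read counts, no error could be put on a rank beyond the pair of values.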
